A study of Mus musculus with 2 samples.

Results

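Keratin and keratin-associated protein genes were taken as the protein-coding genes of the mouse annotation whose symbol is Krt or Krtap followed by a digit. This gave 110 genes of 21851, with 53 Krt and 57 Krtap genes. They lie on chromosome 11 (50 genes), chromosome 15 (26), chromosome 16 (24), chromosome 7 (5), chromosome 10 (3) and chromosome 1 (2). Keratins are the intermediate filament proteins of epithelial cells, and a type I keratin pairs with a type II keratin to build a filament. In the mouse, type I genes are grouped on chromosome 11 and type II genes on chromosome 15, apart from the type I gene Krt18 at the end of the type II group. Keratin-associated proteins form the matrix in which the hair keratins of the growing hair shaft are embedded.

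Open chromatin was mapped by DNase-seq, which sequences the ends of fragments released from accessible DNA by the nuclease DNase I. The series has 1 group of 2 biological replicates: hindbrain tissue of B6NCrl mouse embryos at 11.5 days, males and females pooled, with no treatment or engineered allele named in the labels. The labels do not say how many embryos entered a replicate. There is no second group, so nothing below is a comparison of conditions. All intervals are 95% limits that cover counting error only, and the spread between replicates is given by the value in each. The limits treat genes and sites as independent, which neighbours in a gene cluster may not be, so they may be too narrow.

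Replicate 1 had 150176 analysed peaks with a median height of 36, and replicate 2 had 194873 with a median height of 50. The height is the authors' value for each 150 bp peak, and its scale is not stated. Peaks of both replicates were merged into 231068 sites, of which 97657 (42.3%) were shared, meaning that peaks of both replicates overlapped. Of the hindbrain genes looked up, Sox2 (115 in replicate 1, 135 in replicate 2), Pax6 (93, 129), Egr2 (105, 122) and Gbx2 (100, 128) had a shared promoter site. Hoxa2 (116) and Hoxb1 (90) had a promoter peak in replicate 2 only. Among genes of surface epithelium, Epcam (47, 98), Cdh1 (31, 84), Grhl2 (56, 102) and Grhl3 (47, 88) had a shared site, while Trp63, the master regulator of stratified epithelium, had no peak. Promoters of genes of other cells, such as Kdr of endothelium (79, 122) and Tal1 of blood and endothelium (51, 108), were also open. The part of these cells in the keratin peaks was not tested. In such a tissue, few open cells and a weak opening in many cells cannot be told apart.

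Most keratin and Krtap promoters had no called peak in either replicate. A promoter was called open where a peak lay within 1 kb of any annotated start of the gene. In replicate 1, 9 of 110 genes (8.18%, limits 3.81 to 14.96) had a promoter peak, beside 67.0% of all protein-coding genes. In replicate 2, 20 of 110 (18.2%, limits 11.5 to 26.7) had one, beside 69.5%. A shared promoter site was found at 8 of 110 genes (7.27%, limits 3.19 to 13.8), beside 65.8% of all genes. The limits for the keratin and Krtap genes lie far below the share of all genes in both replicates. Of the 53 Krt genes 7 (13.2%, limits 5.48 to 25.3) had a shared site, and of the 57 Krtap genes 1 (1.75%, limits 0.0444 to 9.39). These limits overlap.

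The replicates differed in which of these genes they reached. No gene had a peak in replicate 1 only (0 of 110, limits 0 to 3.30), where all genes gave 0.696%, which is within the limits. A peak in replicate 2 only was present at 11 of 110 genes (10%, limits 5.10 to 17.2), beside 3.10% of all genes. All 20 open genes (70.2% of all genes were open in either replicate) were therefore open in replicate 2, the replicate with more peaks.

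Where a promoter was open, its peak was mostly low. The median height of open keratin and Krtap promoters was 32 in replicate 1 (9 genes) and 42 in replicate 2 (20 genes), beside 100 and 126 over all open genes. Krt10 stood apart, at 101 and 121. Its height was at or above that of 52.4% of open genes in replicate 1 and 41.7% in replicate 2, whereas no other keratin or Krtap gene passed 9.60% in either replicate. The plot of promoter heights shows both replicates side by side.

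**Figure D1:**
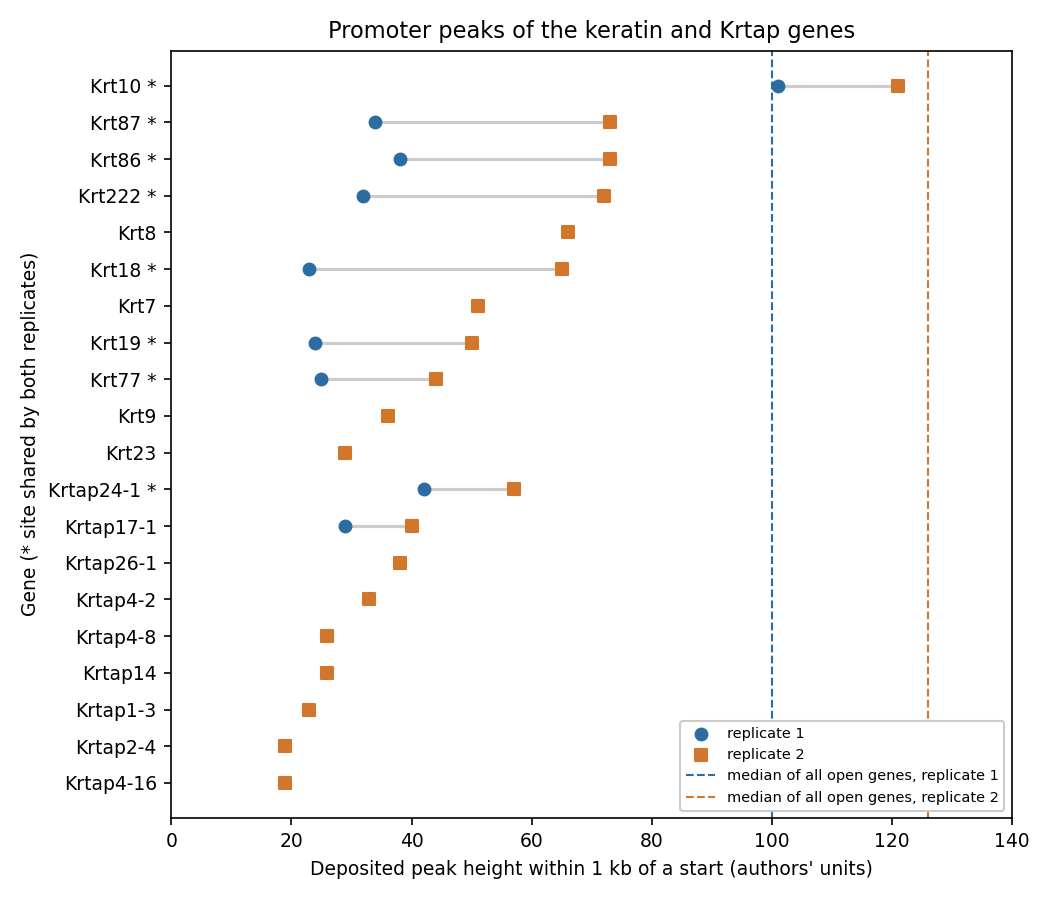
Height of the highest deposited peak within 1 kb of a start (horizontal axis, the authors' units) for each of the 20 keratin and Krtap genes with a promoter peak, replicate 1 as circles and replicate 2 as squares, and a star for a site shared by both. The dashed lines are the medians over all open protein-coding genes, 100 and 126; Krt10, at 101 and 121, is the gene that comes near them.

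Simple epithelial keratins line single-layered epithelia and are the earliest keratins of the embryo. Of 6 such genes, 2 had a promoter peak in replicate 1 and 5 in replicate 2, beside 67.0% and 69.5% of all genes. A shared site was present at 2 of the 6, Krt18 and Krt19, beside 65.8% of all genes. Krt18, the type I partner of Krt8, reached 23 in replicate 1 and 65 in replicate 2, with peak centres 110 and 10 bp after the start. Krt19, a type I keratin of ducts and simple epithelia, reached 24 and 50, at separate sites each seen in 1 replicate. Its shared site (23 and 44) was centred 540 bp after the start. The peaks of Krt19 spread from 70 bp before to 850 bp after the start. Krt8, the type II partner of Krt18, had a promoter peak in replicate 2 only, of height 66. A further site inside Krt8, centred in an intron and 1257 bp from the start, was shared at 65 and 102 and so fell just outside the promoter window. Krt7, a type II keratin of ducts, had a peak of 51 in replicate 2 only, and Krt23, a further type I keratin of simple epithelia, one of 29. Krt20, a keratin of the gut lining, had no promoter peak in either replicate. In each gene of this group with peaks in both replicates, replicate 2 was the higher.

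Basal keratins mark the dividing layer of stratified epithelium. None of 3 genes, Krt5, Krt14 and Krt15, had a promoter peak in either replicate, where 70.2% of all genes had one. The nearest shared site lay 8553 bp from the start of Krt5 and 3823 bp from that of Krt14. The latter is a site in Krt14 itself (35 and 72), close to the gene's end.

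Suprabasal and terminal keratins follow when a keratinocyte leaves the basal layer. Of 7 genes, Krt10 and Krt77 had a shared site and Krt9 a peak in replicate 2 only (36). Over all genes, 65.8% had a shared site and 3.10% a peak in replicate 2 only. Krt77, a type II keratin of sweat gland ducts, reached 25 and 44. Krt9 is the keratin of palm and sole skin. Krt1, the type II partner of Krt10, had no promoter peak.

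The promoter peak of Krt10 did not lie at the main start of the gene. Krt10 runs on the minus strand of chromosome 11 from 99389364 down to 99385254 (mm10). The peaks were centred 3294 bp (replicate 1) and 3234 bp (replicate 2) after that start, next to the start of a second, short annotated transcript. The site lies wholly in coding exon 7 of 8 of the main transcript. No peak was found at the main start. With the outermost start of each gene alone, Krt10 was not called open, and 7 genes had a shared site.

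Krt1 and Krt77 also had a shared site in coding sequence, in their last exon and over 1 kb from any start. In Krt1 a shared site of height 57 and 103 lay in the coding part of exon 9 of 9, and in Krt77 one of 46 and 108 lay in the coding part of exon 9 of 9. The 3 sequences are shown because all are GC-rich repeats. GC made up 73.8% of the Krt10 site, 74.1% of the Krt1 site and 72.4% of the Krt77 site. Capitals mark the most repeated 12-base word in each, present 4 times in Krt10, 3 times in Krt1 and 5 times, overlapping, in Krt77. All are printed on the plus strand of mm10, and the 3 genes lie on the minus strand. The positions are chr11:99385996-99386205 for Krt10, chr15:101846036-101846205 for Krt1 and chr15:101859916-101860085 for Krt77.
Krt10 exon site: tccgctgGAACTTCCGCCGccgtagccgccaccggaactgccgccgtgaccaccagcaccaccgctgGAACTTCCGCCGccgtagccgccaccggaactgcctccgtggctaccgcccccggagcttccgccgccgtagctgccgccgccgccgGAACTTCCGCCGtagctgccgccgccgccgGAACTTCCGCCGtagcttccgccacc
Krt1 exon site: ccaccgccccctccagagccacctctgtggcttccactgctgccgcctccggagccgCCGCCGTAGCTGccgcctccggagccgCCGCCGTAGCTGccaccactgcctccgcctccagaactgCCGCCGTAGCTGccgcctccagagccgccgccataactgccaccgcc
Krt77 exon site: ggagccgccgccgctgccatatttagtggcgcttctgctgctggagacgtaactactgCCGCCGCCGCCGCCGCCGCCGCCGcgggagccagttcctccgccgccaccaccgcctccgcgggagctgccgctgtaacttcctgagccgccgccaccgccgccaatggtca

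Sites inside Krt genes were found mostly in exons. Over the 53 Krt genes, at more than 1 kb from any start, 35 sites were centred in gene bodies. Of these, 23 (65.7%, limits 47.8 to 80.9) were centred in an exon, 19 of them in coding sequence, although exons made up 24.0% of those bases. In the other protein-coding genes of chromosomes 11 and 15, 1129 of 9768 sites (11.6%, limits 10.9 to 12.2) were centred in exons, which made up 7.17% of the bases. By replicate, 60.9% of 23 peaks in replicate 1 and 71.4% of 28 peaks in replicate 2 lay in Krt exons, and 66.7% of the 15 shared sites did. The exon sites belonged to 17 Krt genes, 11 of them on chromosome 15. Higher ones were in the hair keratin genes Krt88 (72 and 104) and Krt86 (64 and 102), in Krt90 (66 and 97) and in Krt79 (41 and 85), a keratin of sebaceous gland and hair canal. Exon bases of Krt genes were 53.4% GC and intron bases 47.8%, and the exon sites had a median GC of 59.3%. Exon sites of the other genes had a median of 56.7%. The part of base composition was not tested. Counted another way, 8 of 54 Krt and Krtap genes of at least 3 kb (14.8%, limits 6.62 to 27.1) had a shared site within 1 kb of the gene's end and over 1 kb from any start, beside 9.78% of all such genes. For the 26 Krt genes of chromosome 15 it was 6 (23.1%, limits 8.97 to 43.6), beside 12.4% of the other genes of that chromosome, which is within the limits. The 26 Krt genes of chromosome 11 went the other way, with 2 (7.69%, limits 0.946 to 25.1) beside 13.1%, also within the limits.

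Activation keratins (Krt6a, Krt6b, Krt16 and Krt17), which rise in wounds, had no promoter peak at any of 4 genes. Neither had the 4 mucosal and corneal keratins nor the 8 keratins of the inner root sheath and companion layer of the hair follicle. Of 16 hair shaft keratins, 2 on chromosome 15 were open, Krt87 and Krt86, both with a shared site. Krt88 and Krt81 lie between them and had no promoter peak. Over all genes, 70.2% were open in either replicate and 65.8% had a shared site. Krt87 reached 34 and 73, with its highest peaks 74 and 34 bp after the start. Krt86 reached 38 and 73 at the same position in both replicates, 348 bp before the start. Both are partly duplicated: 16.02% of the 36-base words around the Krt87 start and 25.6% around the Krt86 start occur elsewhere in the genome. Of the 5 remaining keratins only Krt222, a keratin-like gene at the edge of the chromosome 11 group, was open, at 32 and 72.

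Krtap genes are short, and their open promoters were few and low. On chromosome 11, 6 of 23 Krtap genes had a peak in replicate 2, and 1 of these, Krtap17-1, also in replicate 1. Over all genes, the shares were 69.5% in replicate 2 and 67.0% in replicate 1. Krtap17-1 reached 29 and 40, but the 2 peaks did not overlap. The others, seen in replicate 2 only, were Krtap4-2 (33), Krtap4-8 (26), Krtap1-3 (23), Krtap2-4 (19) and Krtap4-16 (19). The peaks of these 6 genes were centred 64 to 514 bp after the start, inside the gene. On chromosome 16, 3 of 24 were open, beside 70.2% of all genes in either replicate. Krtap24-1 had the shared site among Krtap genes, with 42 and 57 at 671 and 691 bp before the start. Krtap26-1 (38) and Krtap14 (26) had a peak in replicate 2 only, that of Krtap14 centred 1025 bp before the start, at the edge of the window. The 10 Krtap genes of chromosomes 1, 7 and 10 had none. Over all 9 open Krtap genes the highest peak lay inside the gene in 7 and upstream in 2.

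The Krtap24-1 site is printed because it is the Krtap promoter site seen in both replicates. It lies at chr16:88612876-88613045 (mm10, plus strand, no capitals).
Krtap24-1 upstream site: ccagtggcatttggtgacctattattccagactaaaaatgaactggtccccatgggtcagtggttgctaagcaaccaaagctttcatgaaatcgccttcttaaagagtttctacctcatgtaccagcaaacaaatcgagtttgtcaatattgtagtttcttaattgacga

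The promoters of these genes are poor in CpG, the dinucleotide of C followed by G that is dense at most constantly open promoters. The ratio of observed to expected CpG within 500 bp of the outermost start had a median of 0.242, with 0.323 for Krt and 0.166 for Krtap genes, beside 0.571 for all genes. No keratin or Krtap gene reached 0.6, the class in which 97.5% of all genes had a shared site. Between 0.3 and 0.6, 7 of 38 (18.4%, limits 7.74 to 34.3) had a shared site, beside 72.9% of all genes in that class. Under 0.3 it was 1 of 72 (1.39%, limits 0.0352 to 7.50), beside 14.3%. In both classes the share of all genes lay above these limits, which treat neighbouring genes as independent. The genes were not alike in CpG within a class: from 0.3 to 0.6 the median ratio was 0.377 for keratin and Krtap genes and 0.460 for all genes, and under 0.3 it was 0.187 and 0.154. The part of the lower ratios in the class from 0.3 to 0.6 was not tested. Openness was scored at any start, so a counted site could lie outside the bases used for the ratio. For Krt10, in the class from 0.3 to 0.6, the peaks were centred 3294 and 3234 bp from the outermost start. The 8 inner root sheath keratins, none of them open, had a median ratio of 0.485, and the simple epithelial keratins 0.444.

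**Figure D2:**
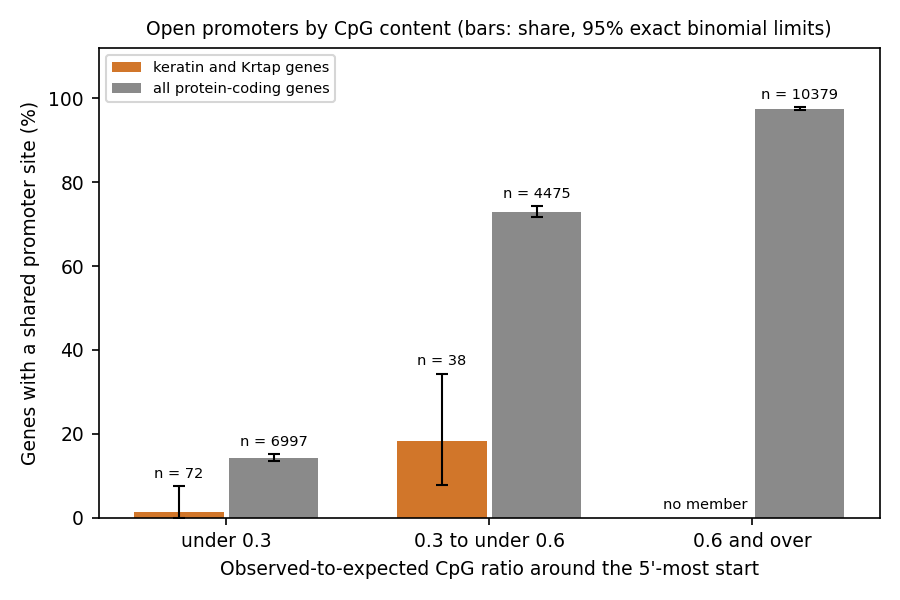
Share of genes with a shared promoter site (vertical axis, %) by the ratio of observed to expected CpG around the outermost start, for keratin and Krtap genes and for all protein-coding genes, with exact binomial 95% limits and the number of genes over each bar. The shares were 1.39% beside 14.3% and 18.4% beside 72.9%, and no keratin or Krtap gene was in the highest class.

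A TATA box was common in these promoters. RefSeq promoter sequences (GRCm38.p6, 250 bases before to 50 after a start) were matched by symbol for 87 of the 110 genes, with 1 promoter per gene. TATAAA on either strand was present in 61 of 87 (70.1%), in 82.4% of 51 Krtap and 52.8% of 36 Krt promoters, beside 14.2% of all 27025 promoters of the table. On the gene's strand and starting 40 to 20 bases before the start, it was present in 44 of 87 (50.6%), beside 2.21% of all. It was found there in 38 of 72 matched genes with no promoter peak (52.8%) and in 2 of 4 with a shared site. These 2 were Krt10 and Krtap24-1, and in neither did the shared site overlap the promoter sequence that holds the box. GGGCGG, the box of SP factors, was in 2.30% of the 87 promoters beside 35.9% of all. GCCNNNGGC, of AP-2 factors, was in 9.20% beside 16.5%, with 1.96% of Krtap and 19.4% of Krt promoters. TGANTCA, of AP-1, was in 12.6% beside 7.92%, with 19.6% of Krtap and 2.78% of Krt promoters. CANNTG, the E-box, was in 86.2% beside 72.1%, and AACNGGTT, of Grainyhead-like factors, was in none of the 87 beside 2.02%. A match describes the letters and is not a bound site.

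The 100 bases before the RefSeq start are printed for 4 genes, with TATAAA in capitals, to set 3 promoters with the box beside that of Krt18, which has none. Krtap11-1 and the main start of Krt10 had no peak, the Krtap24-1 site lay farther upstream, and the Krt18 start was covered by its site. The positions (GRCm38.p6) are chr16:89571184-89571283, chr16:88612280-88612379 and chr11:99389365-99389464 on the minus strand, and chr15:102028116-102028215 on the plus strand.
Krtap11-1: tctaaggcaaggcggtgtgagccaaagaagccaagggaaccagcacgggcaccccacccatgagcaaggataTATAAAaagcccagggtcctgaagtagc
Krtap24-1: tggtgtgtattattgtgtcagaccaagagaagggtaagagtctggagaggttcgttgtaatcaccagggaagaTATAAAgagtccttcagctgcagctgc
Krt10: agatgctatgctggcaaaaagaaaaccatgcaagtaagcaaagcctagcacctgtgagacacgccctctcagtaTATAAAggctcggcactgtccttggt
Krt18: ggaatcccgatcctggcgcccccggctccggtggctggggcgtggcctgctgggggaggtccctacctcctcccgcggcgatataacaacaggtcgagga

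Gene copies are frequent in these families and can hide peaks where reads fit several places. How the authors treated such reads is not stated. Of the 36-base words within 1 kb of the outermost start, a median of 5.62% had another copy in the genome for keratin and Krtap genes, with 9.46% for Krtap and 2.29% for Krt genes, beside 0.814% for other genes of the same chromosomes. Krtap4-13 was highest, at 66.0%. Of 70 genes with under 10% copied, 6 (8.57%) had a shared promoter site, beside 74.5% of the other genes under that limit. Of the 40 genes with 10% or more copied, 2 (5%) had one, beside 25.02% of the other genes. The part of copies in these shares was not tested.

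Sites near the genes were distant from the starts. The nearest shared site lay at a median of 12722.5 bp from the outermost start (9307 bp for Krt, 19965 bp for Krtap), beside 58 bp for all genes.

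The genes form 4 clusters, taken as runs of at least 5 with under 1 Mb between neighbours. On chromosome 11 the cluster holds 50 genes from Krt222 to Krt42 in 1037 kb (chr11:99232761-100269871). On chromosome 15 it holds 26 from Krt80 to Krt18 in 684.6 kb (chr15:101347444-102032027), and on chromosome 16 it holds 24 from Krtap24-1 to Krtap11-1 in 960.5 kb (chr16:88610705-89571183). A smaller cluster on chromosome 7 holds 5 genes from Krtap5-2 to Krtap5-4 in 130.1 kb (chr7:142174535-142304594). Of 40 other protein-coding genes inside the clusters, none had a shared promoter site and 1 had a promoter peak in either replicate. Over all genes, the shares were 65.8% and 70.2%. These other genes are those that the symbol rule left out, and whether they are related to the keratin and Krtap families was not examined.

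The clusters differed in how many sites they held. The chromosome 16 cluster held 24 sites, or 2.50 per 100 kb (limits 1.60 to 3.72), beside 7.51 on the rest of the chromosome. The chromosome 11 cluster held 75, or 7.23 per 100 kb (limits 5.69 to 9.06), beside 13.4. On chromosome 15 the cluster held 76, or 11.1 per 100 kb (limits 8.75 to 13.9), beside 8.89, and on chromosome 7 it held 15, or 11.5 per 100 kb (limits 6.46 to 19.0), beside 9.89. The values for the rest of the chromosome lie outside the counting limits for chromosomes 11 and 16 and within them for chromosomes 15 and 7. By replicate, the density was 0.460 and 0.545 times that of the rest on chromosome 11, 0.383 and 0.288 times on chromosome 16, 1.29 and 1.25 times on chromosome 15, and 1.296 and 1.37 times on chromosome 7. Shared sites numbered 28, 11, 36 and 7 on chromosomes 11, 16, 15 and 7, or 0.455, 0.375, 1.39 and 1.24 times the density of the rest. Set only against regions in and within 10 kb of protein-coding genes, the ratios for chromosomes 15 and 7 fell below 1, to 0.831 and 0.893.

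**Figure D3:**
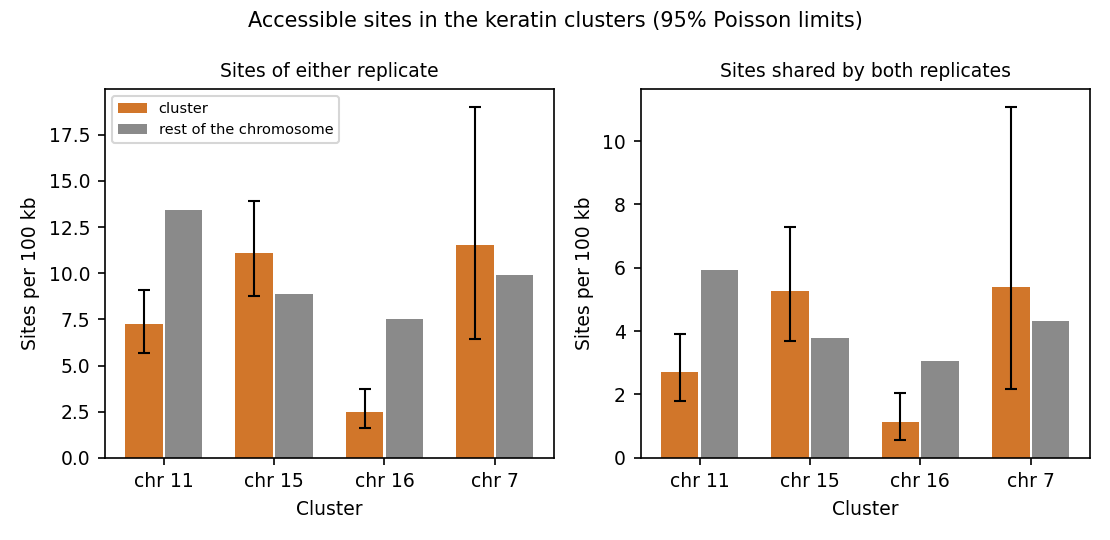
Sites per 100 kb (vertical axis) in each keratin or Krtap cluster and on the rest of its chromosome, for sites of either replicate (left) and shared sites (right), with exact Poisson 95% limits for the clusters. Clusters on chromosomes 11 and 16 lie below the rest (7.23 beside 13.4 and 2.50 beside 7.51), while those on chromosomes 15 and 7 have limits that include it for sites of either replicate.

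Such counts are not rare along a chromosome. Of 111 windows of the cluster's length on the rest of chromosome 11, 28 held fewer sites than the cluster, as did 17 of 97 on chromosome 16, 100 of 144 on chromosome 15 and 681 of 1080 on chromosome 7. The surroundings differed more. The 500 kb before and after the chromosome 11 cluster held 39.6 and 27.4 sites per 100 kb, and those around the chromosome 15 cluster 28.6 and 28.2. Both clusters were below their own flanks, beyond counting limits. Around the chromosome 16 cluster the values were 5.60 and 11.8, and around the chromosome 7 cluster 12.8 and 20.2. Copied 36-base words made up 11.1%, 7.78%, 14.8% and 23.0% of the clusters on chromosomes 11, 15, 16 and 7, and 4.70% to 8.63% of the flanks.

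Within the chromosome 11 cluster, the Krtap genes stand between 2 stretches of keratin genes. The first keratin stretch, with 12 genes, held 9.77 sites per 100 kb (limits 6.64 to 13.9), the Krtap stretch, with 23 genes, 4.28 (limits 2.58 to 6.68), and the second keratin stretch, with 15 genes, 9.06 (limits 5.86 to 13.4). Shared sites numbered 16, 4 and 8. In the Krtap stretch replicate 1 had 6 peaks and replicate 2 had 18, and 18.5% of its 36-base words were copied, beside 5.87% and 5.11% in the keratin stretches. The part of these copies in the low count was not tested.

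Hotspots are the wider regions called by the authors. They covered 1.03% of the chromosome 11 cluster in replicate 1 and 1.59% in replicate 2, beside 2.73% and 4.62% of the rest, and 0.512% and 0.452% of the chromosome 16 cluster beside 1.46% and 2.28%. On chromosome 15 the cover was 2.23% and 3.79% beside 1.71% and 2.91%, and on chromosome 7 it was 2.26% and 3.16% beside 2.01% and 3.31%. In the chromosome 16 cluster the longest stretch without a hotspot was 302.2 kb in replicate 1 and 197.5 kb in replicate 2. On chromosome 11 it was 204.0 kb in replicate 1, with 9 Krtap genes from Krtap1-5 to Krtap4-6 inside it, and 143.6 kb in replicate 2. Longer stretches without a hotspot numbered 17 and 35 on chromosome 16, and 26 and 40 on chromosome 11. The outermost start lay in a hotspot for 3 of 50 genes of the chromosome 11 cluster, 3 of 26 on chromosome 15, none of 24 on chromosome 16 and none of 5 on chromosome 7, with the same counts in replicate 1 and in replicate 2. Over all protein-coding genes the outermost start lay in a hotspot for 58.1% in replicate 1 and 63.4% in replicate 2.

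**Figure D4:**
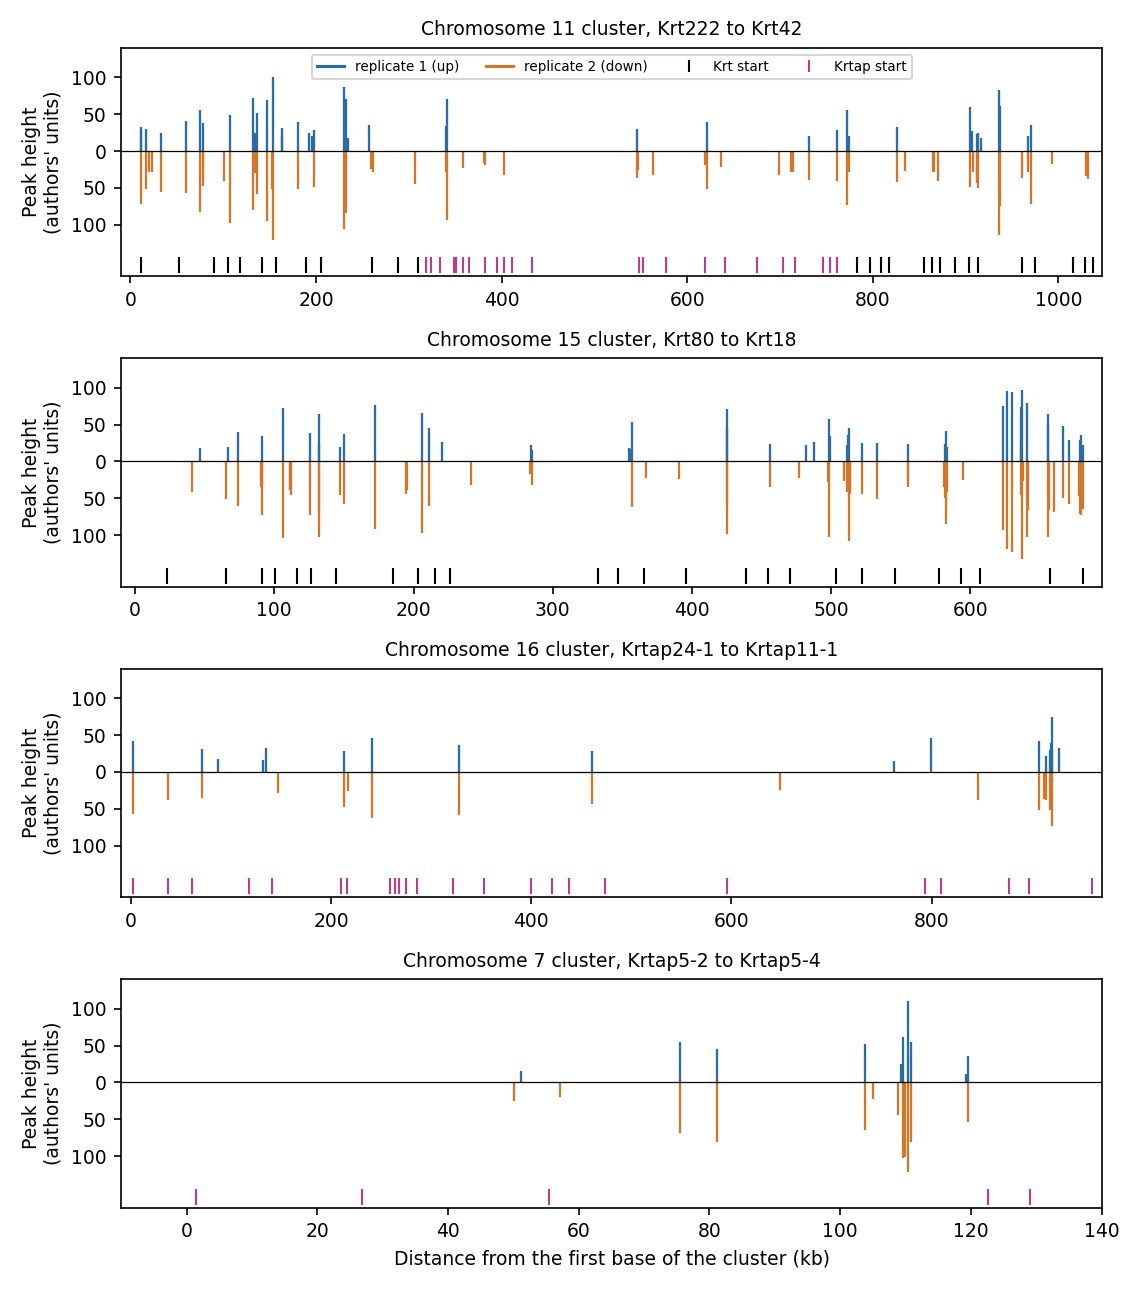
Peak height at each site (vertical axis, the authors' units; replicate 1 upwards, replicate 2 downwards) along the 4 clusters by distance from the first base of the cluster (kb), with ticks at the outermost start of each Krt (black) and Krtap (pink) gene. The 4 highest sites of the chromosome 15 cluster lie between Krt78 and Krt8, away from any protein-coding start. Sites are sparse in the Krtap stretch of chromosome 11 and in the chromosome 16 cluster.

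Of the highest sites of each cluster, most named here lay between genes and those of Krt10 and Krt88 in exons. On chromosome 15, 4 of the 5 highest stood together between Krt78 and Krt8, 16.2 to 23.2 kb from the nearest protein-coding start. Their heights were 97 and 132, 94 and 123, 95 and 119, and 79 and 102. Starts of noncoding genes were not looked at. The fifth was the exon site of Krt88. On chromosome 11 the Krt10 exon site was followed by a site between Krt19 and Krt9 (83 and 114), 23.0 kb from Krt19. Other high sites there lay between Krt20 and Krt23 (87 and 106) and between Krt28 and Krt10 (69 and 95). On chromosome 16 the highest site (75 and 73) lay 22.4 kb from Krtap7-1. It was followed by sites 17.8 kb from Krtap19-1 (46 and 62), at Krtap24-1 (42 and 57), 9.50 kb from Krtap7-1 (42 and 51) and 6.20 kb from Krtap19-9b (36 and 59). On chromosome 7 all 5 lay between Krtap5-5 and Krtap5-1, nearest to the predicted genes Gm4559 and Gm2431, the highest with 111 and 121. Sites shared in the 3 larger clusters had median heights of 40 and 60, beside 49 and 78 on the rest of their chromosomes. The rest includes sites at promoters, where the highest peaks of open genes had medians of 100 and 126 over all genes. Sites away from starts were not compared alone.

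A core of the binding motif of CTCF, the factor that bounds chromatin loops, was looked up in the central 150 bp of sites on either strand. It has 11 letters, 7 of them fixed, and a match stands in capitals in the sequence at the end of the paragraph. This core was chosen after the site sequences had been seen. It was present in 8 of the 20 highest cluster sites and in 19 of the 62 other shared cluster sites, beside 17.9% of all shared sites. Among shared sites over 1 kb from a start the share was 22.3%, and among those at least as high as the lowest of the 20 it was 27.1%. On chromosome 11, 12 of 28 shared cluster sites held it (42.9%), beside 18.7% on the rest. On chromosome 15 it was 10 of 36 (27.8%), beside 19.3%. The shares on the rest of these chromosomes include sites within 1 kb of a start, and distant sites were not taken alone. Printed is the highest chromosome 15 site, chr15:101984356-101984545 (mm10, plus strand), with the core in capitals.
Chromosome 15 site between Krt78 and Krt8: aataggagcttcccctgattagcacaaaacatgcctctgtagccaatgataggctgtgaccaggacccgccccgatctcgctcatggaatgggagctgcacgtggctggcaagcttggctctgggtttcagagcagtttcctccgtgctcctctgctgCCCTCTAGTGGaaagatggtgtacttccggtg

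Other genes of the filament and epithelial programme were set beside the keratins, as lists. Of 15 other intermediate filament genes 13 (86.7%) had a shared promoter site, led by the lamin gene Lmnb1 (126 and 146), Vim, the filament gene of mesenchyme and progenitors (120 and 129), and Nes, that of neural progenitors (113 and 133). Des, of muscle, had a peak in replicate 2 only (84), and Gfap, of mature astrocytes, had none. Of 20 transcription factor genes of epithelium and hair, 17 (85%) had a shared site, led by Klf5 (107 and 136), Grhl1 (117 and 128) and Klf4 (101 and 137), while Foxn1 and Trp63 had no peak. Of 26 desmosome and epithelial junction genes 15 (57.7%) had one, led by Jup (126 and 133), Plec (97 and 115) and Pkp2 (87 and 111), while Col17a1 and Dsc1 were among those with none. Of 22 cornified envelope and hair matrix genes none had a shared site. In this list S100a3 had a peak in replicate 1 only (61), Casp14 (17), Tchh (44) and Tgm1 (34) had one in replicate 2 only, and Cdsn and Flg had none. The median CpG ratio of the 4 lists was 0.790, 0.673, 0.422 and 0.146 in that order, and that of the keratin and Krtap genes, 0.242, lay between the last 2.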

How the data were processed

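Each replicate has its own peaks and hotspots, called by the authors on mm10, per the labels. Aligner, caller, versions, filters and depth: not given in the sources used here. Heights are the signal that the authors deposited per peak. A deposited hotspot has the −log10 of its estimated false discovery rate, strong ones set to 100, and a deposited score that follows this value. Main chromosomes were kept and repeated positions dropped. Peaks overlapping by 1 bp or more were merged into sites. Starts came from protein-coding transcripts of GENCODE M21 (basic set, 41438 starts), and sequences from GRCm38.p6. Copies were exact 36-base words on either strand. With 1 group of 2 libraries no test between groups exists: Clopper-Pearson (shares) and exact Poisson (counts) limits are given. Named were all open genes, Krt1, Krt5, Krt7, Krt8, Krt10, Krt14, Krt18, Krt19, cluster ends, the 5 highest sites of each cluster, and, of each further list, the 3 highest genes and the first 2 with no peak; Krt15, Krt20, Krtap4-13, the exon sites of Krt genes, gene-body shares, gene ends, flanks, chromosome 11 stretches and the CTCF core were added after values were seen. The genes, lists and tests were chosen with earlier results of these data known. Some genes and sites that meet this rule are not reported here. The code was tested on simulated peaks. Python 3.11.15, numpy, pandas, scipy and matplotlib were used.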

Additional observations from a re-analysis of the deposited data

How the results depend on the processing

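No paired analysis was possible because there is 1 group of 2 libraries. The number of keratin and Krtap genes with a shared promoter site, 8, became 13 with a promoter window of 2500 bp (Krt26, Krt73, Krt8, Krtap4-8 and Krtap14 added) and 3 with peaks above the median height of their library (Krt10, Krt86 and Krtap24-1). Over all genes the share was 65.8%, and 68.8% and 62.2% with these 2 settings. With 1 library left out no site can be shared, and genes with any promoter peak were counted. They numbered 9 without replicate 2 and 20 without replicate 1, beside 67.0% and 69.5% of all genes. The count was 6 to 9 of 110 with a 500 bp window, the outermost start alone, an overlap of 75 bp, or any peak in both libraries, beside 63.5% to 66.4% of all genes. Among genes with few copies it was 6 of 70 (8.57%), beside 73.7% of all genes under that limit on the same chromosomes.

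The ratio of cluster density to the rest of the chromosome kept its side of 1 under these settings on chromosomes 11 and 16. On chromosome 11 it was 0.539; with higher peaks alone it was 0.306, with a background near genes 0.419, and from 0.46 to 0.545 with 1 library left out. On chromosome 16 it was 0.333; these gave 0.252, 0.239 and 0.288 to 0.383. On chromosome 15 it was 1.25, and 1.15 with higher peaks and 1.25 to 1.29 with 1 library left out, but the background near genes reversed it to 0.831. On chromosome 7 it was 1.17, and 1.26 with higher peaks, 1.26 without other genes and 1.3 to 1.37 with 1 library left out, but that background reversed it to 0.893. With an overlap of 75 bp, the ratio for shared sites moved from 1.39 to 1.43 on chromosome 15 and from 1.24 to 1.39 on chromosome 7. For hotspot cover, hotspots at the top written value gave 0.273 on chromosome 11 (0.356 with all), 1.23 on chromosome 15 (1.3) and 1.22 on chromosome 7 (1.02). Hotspot cover on chromosome 7 was 0.956 without replicate 1, a reversal, and 1.12 without replicate 2. The cause of these shifts was not tested. A count was taken as unmoved within 1.5 times its value, a ratio within 1 SD of the 2 libraries, and the exon share within its binomial limits. By these limits 30 of the recomputed values were unmoved, 19 moved and 3 reversed. The share of Krt gene-body sites in exons, and its settings, were added after the data were seen. With no read depth, a promoter without a peak is one not detected at the authors' threshold.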
